A study of Mus musculus with 8 samples.

Results

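Ccl3, Ccl4, Ccl5, Ccl9 and Xcl1, genes for secreted chemokines associated with effector CD8 T cells, were followed in 8 RNA-seq libraries of CD8 T cells from mouse liver. They were chosen by gene symbol, with earlier results of these data known, and are 5 of the 22609 genes counted. All 5 passed the filter on low counts and were among the 10073 genes tested. The libraries came from male C57BL/6J mice aged 6 weeks given an antibody against CD137 (αCD137), a receptor that costimulates T cells, on day 0, 3 and 6. Livers were collected on day 8. The sort kept live CD45+ cells that were MHCII-, NK1.1-, TCRβ+, CD8α+ and CD4-, and among these the KLRG1+CD127- cells, the surface pattern of effectors. A further split on CD11c gave the 2 subsets compared here, CD11c+ and CD11c-, with 4 libraries each that the labels number 1 to 4. Both subsets came from antibody-treated mice, and the comparison is between the subsets. Whether the libraries of a subset are from different mice is not said, and every p-value here therefore measures only how these samples spread, part or all of which may be technical.

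Chemokines are small secreted proteins that guide the movement of cells carrying matching receptors. CCL3, CCL4 and CCL5 are inflammatory CC chemokines, and CCL3 and CCL5 act on CCR1. XCL1 (lymphotactin) acts on XCR1, the receptor of cross-presenting dendritic cells. CCL9 is a rodent CC chemokine made mainly by myeloid cells, which signals through CCR1. Activated CD8 T cells release CCL3, CCL4, CCL5 and XCL1 together with interferon-γ. CCL5 is unusual among them in being transcribed late after activation and stored in effector and memory cells, while Ccl3, Ccl4 and Xcl1 are induced soon after the T-cell receptor is engaged.

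The genes sit in 2 places of the genome. In the GRCm38 build with the GENCODE M21 annotation, Ccl5 (chr11:83525778-83530518, minus strand), Ccl9 (chr11:83572919-83578636, minus strand), Ccl3 (chr11:83647844-83649355, minus strand) and Ccl4 (chr11:83662584-83664683, plus strand) lie in 1 cluster on chromosome 11. Ccl3 and Ccl4 are neighbours, 13228 bases apart and transcribed in opposite directions. Xcl1 lies apart on chromosome 1 (chr1:164931644-164935527, minus strand). Ccl9 has 4 exons and each of the others has 3. The coding sequences of Ccl3 and Ccl4 were identical at 69.6% of 270 aligned bases, but their longest shared run was 9 bases, against reads of 50 bp. Of the 50-base windows of their transcripts, 0 were shared with any other gene, and the same held for Ccl5, so reads of these 3 genes could be told from each other. Of 2957 such windows of Ccl9, 59 occurred in other genes. In Xcl1, 51 of 474 windows overlapped an antisense gene model, Gm20743, and reads from that stretch cannot be told apart here. The strand setting of the counting is not given in the sources used.

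The 250 bases upstream of the RefSeq start are shown for Ccl3, Xcl1 and Ccl9, since Ccl3 and Xcl1 varied together between libraries and Ccl9 did not follow them. Ccl4 and Ccl5 have no entry in the promoter table. The build is GRCm38.p6, each is on the minus strand and is written 5′ to 3′, and capitals mark matches to the motifs listed after them.
Ccl3 (chr11:83649379-83649628): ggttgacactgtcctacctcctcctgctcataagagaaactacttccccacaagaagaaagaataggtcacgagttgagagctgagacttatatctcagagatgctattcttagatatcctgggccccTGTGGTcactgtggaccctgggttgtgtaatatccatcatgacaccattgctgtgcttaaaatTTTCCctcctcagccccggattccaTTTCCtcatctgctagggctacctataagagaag
Xcl1 (chr1:164935523-164935772): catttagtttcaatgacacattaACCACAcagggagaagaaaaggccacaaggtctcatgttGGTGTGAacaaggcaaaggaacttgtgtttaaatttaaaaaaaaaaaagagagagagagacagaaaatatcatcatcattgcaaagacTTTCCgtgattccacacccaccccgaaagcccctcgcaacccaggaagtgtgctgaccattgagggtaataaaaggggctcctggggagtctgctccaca
Ccl9 (chr11:83578637-83578886): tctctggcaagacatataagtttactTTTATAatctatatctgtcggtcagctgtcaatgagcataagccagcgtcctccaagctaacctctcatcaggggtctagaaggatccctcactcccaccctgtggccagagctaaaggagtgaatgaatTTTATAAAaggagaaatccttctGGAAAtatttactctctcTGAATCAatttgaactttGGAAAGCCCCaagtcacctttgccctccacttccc

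The motifs searched, on both strands, were NFAT (GGAAA), AP-1 (TGANTCA), the CRE core (TGACGT), NF-kB (by its consensus), T-box (TCACACC), RUNX (TGTGGT) and the TATA box (TATAAA). The NFAT letters occurred at -59 to -55 and -34 to -30 of Ccl3 and at -100 to -96 of Xcl1, counted from the base before the start, in each case on the opposite strand as TTTCC. A RUNX match stood at -122 to -117 of Ccl3 and, as ACCACA, at -227 to -222 of Xcl1. Xcl1 alone of the 3 had a T-box match, at -188 to -182, as GGTGTGA. Ccl9 had 2 NFAT matches, at -71 to -67 and -35 to -31, the second overlapping an NF-kB match at -35 to -26, and an AP-1 match at -53 to -47. Ccl9 also had 3 TATA matches, 2 of which overlap. Of all 32851 promoters of this length in the table, 55.6% held the NFAT letters, 14% RUNX, 12.4% TATA, 7.25% NF-kB, 6.75% AP-1, 6.47% the CRE core and 3.33% T-box. A match is a description of the letters, and NFAT matches were present in most promoters.

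The libraries held 5090345 to 7093163 gene reads and 10482 to 12581 genes with at least 1 read. Itgax, which encodes CD11c, followed the sort, at 197.9 to 356.6 CPM (gene reads scaled to a common total by library size and TMM factors) in the CD11c+ libraries and 4.75 to 17.9 CPM in the CD11c- libraries. Cd8a was at 1020 to 1235 CPM, Cd4 at no more than 1.56 and Il7r, which encodes CD127, at no more than 18.1. Few genes were called as different between the subsets. In edgeR's quasi-likelihood test with Benjamini-Hochberg adjustment, 5 of 10073 genes passed 0.05 (0.0496%), and 473 (4.7%) had an unadjusted p under 0.05.

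Of the 5 chemokine genes, 0 passed the threshold in that test, beside 0.0496% of all genes. Xcl1, Ccl4 and Ccl3 had higher mean levels in the CD11c+ subset, by 2.11-fold, 1.68-fold and 1.78-fold. All 3 had an unadjusted p under 0.05 (2.43% of all genes were higher at that level), and their adjusted p-values were 0.526, 0.556 and 0.991. Since the members were chosen with earlier results known, their p-values here and below are a description and no independent support. Ccl5 and Ccl9 had unadjusted p-values of 0.157 and 0.818. Because these are bulk libraries, fewer expressing cells and less RNA per cell cannot be told apart in any of these values.

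Xcl1, the ligand of XCR1, was the member with the clearest separation. Its levels in CD11c+ libraries 1 to 4 were 41.6, 71.8, 49.3 and 62.6 CPM, and in CD11c- libraries 1 to 4 they were 15.8, 33.3, 28.2 and 29.5 CPM. Every CD11c+ library lay above every CD11c- library, a separation that 161 of the tested genes (1.6%) showed in this direction. The means were 56.3 ± 13.5 and 26.7 ± 7.60 CPM (SD, n = 4 each). The log2 fold change of Xcl1, CD11c+ minus CD11c-, was 1.08 with a standard error of 0.27 in edgeR's quasi-likelihood test (adjusted p = 0.526, rank 31 of the tested genes by p). DESeq2 called it (adjusted p = 0.0440, where 0.318% of all genes passed), while limma voom did not (adjusted p = 0.116, where 0.189% passed). DESeq2 left genes of low mean level, Ccl9 among them, without an adjusted p, so it adjusted over fewer genes than edgeR and limma voom. Whether Xcl1 would pass in DESeq2 when adjusted over all tested genes was not tested.

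Ccl4, which encodes the CC chemokine MIP-1β, came next. It stood at 385, 634, 428 and 517 CPM in CD11c+ libraries 1 to 4 and at 240.2, 388, 311 and 230.2 CPM in CD11c- libraries 1 to 4. The subsets overlapped by 1 library on each side, with the lowest CD11c+ library just below the highest CD11c- library. Means were 491 ± 110.0 and 292 ± 73.3 CPM (SD, n = 4 each). The log2 fold change of Ccl4 was 0.75 with a standard error of 0.19 in edgeR's quasi-likelihood test (adjusted p = 0.556, rank 32). It passed in DESeq2 (adjusted p = 0.0183) and not in limma voom (adjusted p = 0.263).

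Ccl3, which encodes the CCR1 ligand MIP-1α, varied most among the abundant members. Its levels were 153, 395, 171 and 233 CPM in CD11c+ libraries 1 to 4 and 89.5, 240.5, 107 and 97.8 CPM in CD11c- libraries 1 to 4. Library 2 was the highest in each subset, and the CD11c- library numbered 2 lay above 3 of the 4 CD11c+ libraries. The coefficient of variation of Ccl3 was 46.3% in the CD11c+ and 53.6% in the CD11c- subset, against 22.4% and 25.1% for Ccl4 and 24.0% and 28.5% for Xcl1. Means were 238 ± 110.3 and 134 ± 71.6 CPM (SD, n = 4 each). The log2 fold change of Ccl3 was 0.83 with a standard error of 0.34 (edgeR quasi-likelihood adjusted p = 0.991, rank 314), and neither DESeq2 (adjusted p = 0.824) nor limma voom (adjusted p = 0.899) called it. Without both libraries numbered 2, the log2 fold change was 0.91 (edgeR quasi-likelihood adjusted p = 0.479). Leaving out the CD11c+ library numbered 2 alone gave 0.46, and leaving out the CD11c- library numbered 2 alone gave 1.27. With a replicate block, the log2 fold change of Ccl3 was 0.85 with a standard error of 0.13 (edgeR quasi-likelihood adjusted p = 0.0663). The labels do not say that the numbers mark pairs.

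**Figure D1:**
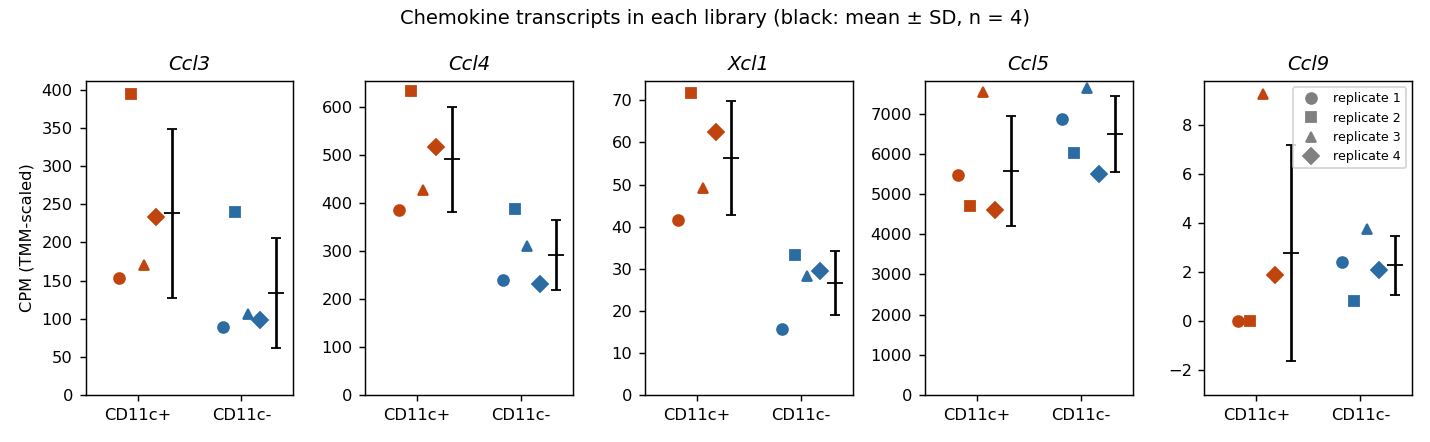
Level of each chemokine transcript (CPM, linear axis, 1 panel per gene with its own scale) in 4 CD11c+ and 4 CD11c- libraries, marker shape showing the replicate number and black lines the mean ± SD. Xcl1 does not overlap between the subsets, Ccl3 and Ccl4 are highest in library 2 of each subset, and Ccl9 is at 0 in 2 libraries.

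Ccl5, which encodes the stored CCR1 ligand RANTES, had most of the reads of the 5 genes and a lower mean in the CD11c+ subset. It stood at 5462, 4706, 7538 and 4589 CPM in CD11c+ libraries 1 to 4 and at 6859, 6009.7, 7637 and 5487 CPM in CD11c- libraries 1 to 4. The ranges overlapped widely, and library 3 was the highest in each subset. Means were 5574 ± 1365 and 6498 ± 947 CPM (SD, n = 4 each), a log2 fold change of -0.22 with a standard error of 0.15 (edgeR quasi-likelihood adjusted p = 0.991). DESeq2 and limma voom gave adjusted p-values of 0.933 and 0.922.

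Ccl9, the myeloid chemokine, rested on few reads. CD11c+ libraries 1 to 4 held 0, 0, 52 and 12 reads and CD11c- libraries 1 to 4 held 13, 6, 20 and 12, which is 115 reads in all. The levels of Ccl9 were 0, 0, 9.25 and 1.87 CPM in the CD11c+ libraries and 2.41, 0.839, 3.76 and 2.11 CPM in the CD11c- libraries. The 2 counts of 0 allow levels of up to 0.585 and 0.523 CPM (3 reads, covering counting error only). As counted, CD11c+ libraries 1 and 2 lay below every CD11c- library and CD11c+ library 3 lay above every one. The lowest CD11c- library (0.839 CPM) rested on 6 reads, and its own counting error was not allowed for, so the order at the low end is uncertain. The means were 2.78 ± 4.40 and 2.28 ± 1.20 CPM (SD, n = 4 each), and the log2 fold change of 0.29 had a standard error of 1.25 (edgeR quasi-likelihood adjusted p = 0.999). It changed sign to -1.80 without CD11c+ library 3 and to -0.55 in limma voom, so no direction was detectable in these libraries.

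**Figure D2:**
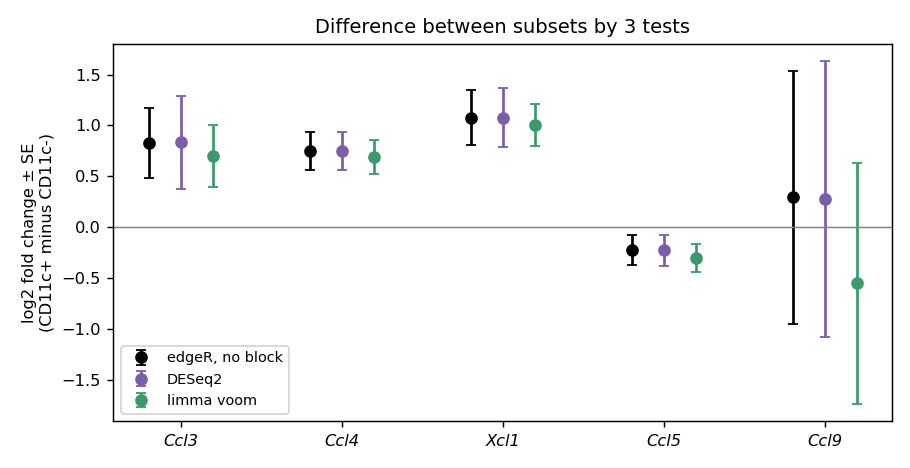
Log2 fold change (CD11c+ minus CD11c-) of each chemokine with its standard error by 3 tests: edgeR's quasi-likelihood test without a replicate block, DESeq2 and limma voom with quality weights. Xcl1, Ccl4 and Ccl3 lie above 0 in each test and Ccl5 below, while the Ccl9 estimate changes sign and has a standard error of over 1.

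Per kilobase of transcript, the order of the levels was Ccl5, Ccl4, Ccl3, Xcl1 and Ccl9 in both subsets. Length-scaled levels in the CD11c+ subset were 10477 CPM per kilobase for Ccl5, 743 for Ccl4, 311 for Ccl3, 108 for Xcl1 and 0.924 for Ccl9. In the CD11c- subset they were 12214, 443, 174, 51.0 and 0.758 CPM per kilobase in the same order. Within each subset, the lowest library of each gene lay above the highest library of the next gene in this order. Together the 5 genes took 0.540% to 0.814% of gene reads, and Ccl5 supplied most of these reads in every library.

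Ccl3, Ccl4 and Xcl1 varied together from library to library. On log2 CPM over the 8 libraries, Ccl3 and Ccl4 had a Pearson r of 0.937 (two-sided exact permutation p = 0.00067, adjusted p = 0.0067 over the 10 pairs of members) and a Spearman rho of 0.905 (exact permutation p = 0.00456, adjusted p = 0.0228). After each subset's mean was removed, their r was 0.938, with pairings permuted within subsets (exact permutation p = 0.00347, adjusted p = 0.0347). Without the 2 libraries farthest from the median of Ccl3, namely CD11c+ library 2 and CD11c- library 1, r was 0.860 (exact permutation p = 0.0264, adjusted p = 0.132). Within the subsets, where 4 libraries allow no test of use, r was 0.987 in the CD11c+ and 0.896 in the CD11c- libraries. The 2 genes thus varied together within each subset as well. The exact tests treat the 8 libraries as independent, which the labels do not state. Same-numbered libraries of the 2 subsets deviated together, with r of 0.0964 to 0.190 over genes, against at most 0.0276 between different numbers. Both genes were highest in library 2 of each subset, so these p-values may be too small. These pairs were also named with results of the same libraries known.

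For Xcl1 the covariation rested more on the subset difference. Its pairs with Ccl3 and Ccl4 were also named with results of these libraries known, so their p-values are a description and no independent support. Ccl4 and Xcl1 had r = 0.910 (exact permutation p = 0.00181, adjusted p = 0.00905) and rho = 0.905 (exact permutation p = 0.00456, adjusted p = 0.0228). Centred on the subset means, r was 0.739 and its adjusted exact permutation p was 0.272, while without the 2 libraries farthest from the median of Ccl4 (CD11c+ library 2 and CD11c- library 4) r was 0.981 (exact permutation p = 0.00278). Ccl3 and Xcl1 had r = 0.838 (exact permutation p = 0.00965, adjusted p = 0.0322) and rho = 0.833 (exact permutation p = 0.0154, adjusted p = 0.0513). Centred on the subset means, r of Ccl3 and Xcl1 was 0.748 (adjusted exact permutation p = 0.272), and without the 2 libraries farthest from the median of Ccl3 it was 0.664 (exact permutation p = 0.167), so that the relation rests in part on those libraries. The relation of Ccl3 to Xcl1 no longer passed 0.05 after adjustment in 6 of the 8 fits that left out 1 library, with r between 0.765 and 0.913. It passed only without CD11c+ library 3 or CD11c- library 2. The relations of Ccl3 to Ccl4 and of Ccl4 to Xcl1 missed 0.05 only without CD11c+ library 2, each with an adjusted exact permutation p of 0.0516 and with r of 0.899 and 0.872.

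Ccl5 did not rise and fall with the other T-cell chemokines. Its r was -0.600 with Ccl3, -0.508 with Ccl4 and -0.599 with Xcl1, and the adjusted exact permutation p-values were 0.197, 0.253 and 0.197. Leaving out both libraries numbered 3, where Ccl5 was highest, gave an r of -0.954 between Ccl5 and Xcl1 (exact permutation p = 0.00972, not adjusted). The other pairs were weaker in this check. Without the 2 libraries farthest from the median of Ccl3 or of Ccl4, r of Ccl5 was -0.358 with Ccl3 and -0.598 with Ccl4. Centred on the subset means, r of Ccl5 was -0.461 with Ccl3, -0.282 with Ccl4 and -0.458 with Xcl1. Ccl5 and Ccl9, both highest in library 3 of each subset, had r = 0.688 (exact permutation p = 0.0632, adjusted p = 0.158) and rho = 0.786 (exact permutation p = 0.0279, adjusted p = 0.0698). Without both libraries numbered 3, r of Ccl5 and Ccl9 was 0.372. Ccl9 had r of -0.508, -0.398 and -0.330 with Ccl3, Ccl4 and Xcl1, none past 0.05.

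**Figure D3:**
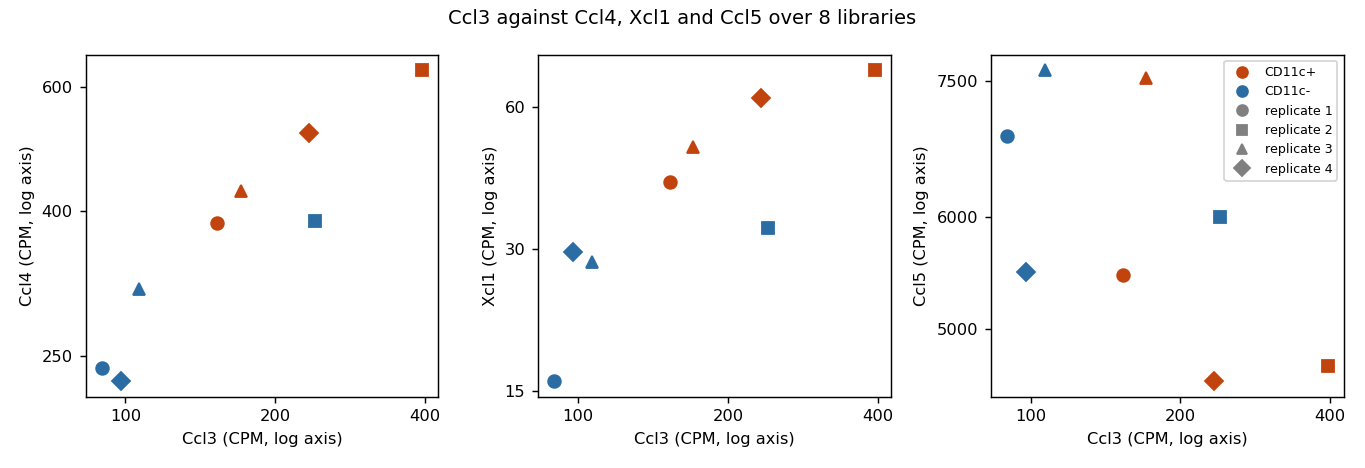
Ccl3 level against Ccl4, Xcl1 and Ccl5 (CPM, log axes) over 8 libraries, colour showing the subset and marker shape the replicate number. Ccl4 (r = 0.937) and Xcl1 (r = 0.838) rise with Ccl3, while Ccl5 (r = -0.600) does not.

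The proportions of the 3 covarying transcripts differed between libraries. Ccl4 had 1.60 reads per Ccl3 read in CD11c+ library 2 and 1.61 in CD11c- library 2, and 2.21 to 2.91 in the other 6 libraries, so Ccl3 made up more of the pair in the libraries numbered 2. The mean ratio was 2.21 ± 0.428 in the CD11c+ and 2.39 ± 0.566 in the CD11c- subset (SD, n = 4 each). Xcl1 had 0.114 ± 0.00536 reads per Ccl4 read in the CD11c+ and 0.0926 ± 0.0262 in the CD11c- subset (SD, n = 4 each), a nearly fixed ratio in the first and a range of 0.0656 to 0.128 in the second. Ccl5 had 27.9 ± 14.7 and 57.3 ± 23.3 reads per Ccl3 read (SD, n = 4 each), with 11.9 at the lowest and 76.6 at the highest.

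Sequencing depth and RNA of other cell types were set beside the members in 15 relations. Ccl3 had r = 0.488 with gene reads (exact permutation p = 0.223, adjusted p = 0.906) and r of -0.0048 with the number of genes detected. Without the 2 libraries farthest from the median of genes detected, r with that number was -0.501 for Ccl3, -0.526 for Ccl4 and -0.522 for Xcl1. For Ccl5 and Ccl9 it was 0.0064 and 0.357. These values were not tested. The summed level of 16 monocyte, macrophage and Kupffer cell markers ranged from 161 to 456 CPM in the CD11c+ and from 148 to 273 CPM in the CD11c- libraries. Of these 16 markers, 7 could be tested and 0 were called. Lyz2, Cd68 and Itgam made up most of the sum, and the Kupffer cell markers Clec4f, Marco, Timd4 and Vsig4 were at or near 0, at no more than 1.40, 0.778, 0.467 and 1.57 CPM. With this sum Ccl3 had r = -0.242, Ccl4 r = -0.0013, Xcl1 r = 0.0549 and Ccl5 r = 0.516. Without CD11c+ library 3, the highest in these markers, Ccl3 and Ccl4 kept an r of 0.946. In the NK cell and innate lymphoid list of 8 genes, whose sum was 13.8 to 86.4 CPM in the CD11c+ and 6.86 to 37.2 CPM in the CD11c- libraries, 6 of the 8 genes had a higher mean in the CD11c+ subset. Tyrobp, at up to 55.1 CPM, and Fcer1g, at up to 22.6 CPM, made up most of this sum in the libraries where it was highest, Klra8 and Klra4 were at 0 in every library, and Ncr1 was at no more than 1.78 CPM. NK cells can also make Ccl3, Ccl4, Ccl5 and Xcl1. The part of such cells in these levels was not tested. The dendritic cell list of 10 genes summed to 102 to 251 CPM in the CD11c+ and 50.2 to 124 CPM in the CD11c- libraries. In this list 9 genes had a higher mean in the CD11c+ subset, 3 could be tested and 0 were called. H2-Ab1, H2-Aa and Cd74 made up most of this sum in every library. The part of dendritic cells in the chemokine levels was not tested.

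Ccl9 was the member that moved with the myeloid markers. Its r with their summed level was 0.848 (exact permutation p = 0.0067, adjusted p = 0.1004 over the 15 relations) and its rho 0.762 (exact permutation p = 0.0368, adjusted p = 0.551). Without the 2 libraries farthest from the median of that sum, r was 0.855. CD11c+ library 3 had the highest Ccl9 (9.25 CPM), the highest myeloid sum (456 CPM) and the highest sum of 7 neutrophil markers (285 CPM, against 2.27 to 118 CPM in the other 7 libraries), with Lyz2 at 264 CPM and S100a8 at 153 CPM. The part of myeloid RNA in the Ccl9 level was not tested.

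**Figure D4:**
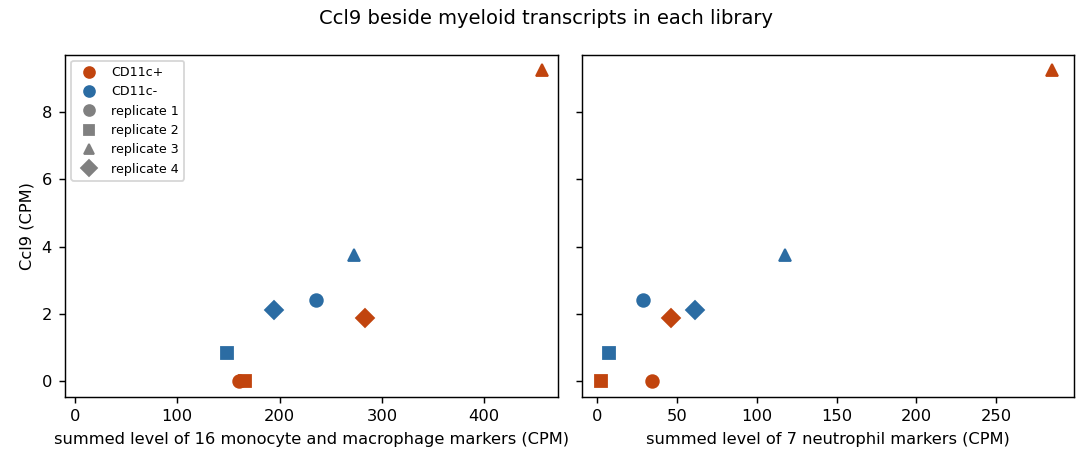
Ccl9 level (CPM) against the summed level of 16 monocyte, macrophage and Kupffer cell markers (left) and of 7 neutrophil markers (right), 1 point per library, colour showing the subset and shape the replicate number. CD11c+ library 3 is highest on all 3 measures, with Ccl9 at 9.25 CPM.

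Few other chemokine ligands were detected. Of 29 further ligands, 3 could be tested and 0 were called. Ccl6, another myeloid CC chemokine, had 13.4 ± 9.29 and 6.45 ± 2.69 CPM in the CD11c+ and CD11c- subsets (SD, n = 4 each). Cxcl10, an interferon-induced ligand of CXCR3, had 10.3 ± 2.55 and 4.61 ± 3.26 CPM with no overlap between subsets (beside 1.6% of all genes), but its edgeR quasi-likelihood p was 0.177. Ccl25, the thymus-expressed chemokine, had 3.07 ± 2.03 and 1.67 ± 1.13 CPM. The other 26 ligands stayed under the filter, with 11 at 0 in every library and none above 5.29 CPM, the level reached by Ccl1. The highest level of any listed ligand in any library was 26.7 CPM, for Ccl6.

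Most genes on a list of receptors and binding partners stayed under the filter. Of 12 receptors, scavengers and binding partners, 4 could be tested and 0 were called. Srgn, which encodes the proteoglycan serglycin of secretory granules, was at 550.4 ± 43.2 and 508 ± 67.2 CPM (SD, n = 4 each). Ccr3, which binds CCL5, was at 10.0 ± 4.88 and 1.49 ± 1.23 CPM without overlap, as 1.6% of all genes were in this direction (log2 fold change 2.73 with a standard error of 0.87, edgeR quasi-likelihood adjusted p = 0.923). Ccrl2 was at 10.7 ± 3.82 and 14.9 ± 6.80 CPM. Ccr1 and Xcr1 stayed under the filter, at no more than 7.65 and 4.68 CPM.

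Transcription factors and effector genes were set beside the chemokines by subset and by library. Of 23 factors induced or activated by the T-cell receptor, 22 could be tested and 0 were called. Their median log2 fold change was 0.21, beside 0.01 for all tested genes, and 19 of 22 were above 0. At an unadjusted p under 0.05, 1 was lower, Batf (215 ± 19.4 against 269 ± 36.4 CPM, SD, n = 4 each), and 0 were higher (2.26% and 2.43% of all genes). Nfatc1 (log2 fold change 0.05), Nr4a1 (0.10) and Junb (-0.14) had small differences, the first 2 changing sign without CD11c+ library 2 and Nfatc1 also in limma voom. Of 12 effector transcription factors, 1 was called in the edgeR quasi-likelihood test (beside 0.0496% of all genes), and at an unadjusted p under 0.05 there were 3 higher and 1 lower. The called gene was Id2, which rose in the CD11c+ subset (623 ± 106 against 315 ± 29.6 CPM, log2 fold change 0.99, adjusted p = 0.0230). Leaving out single libraries ended the call for Id2 in 6 of 8 cases, with an adjusted edgeR p of up to 0.108. Tbx21, which encodes the T-box factor T-bet, was at 349 ± 26.2 and 227 ± 19.0 CPM (adjusted p = 0.0850). Bhlhe40 and Stat4 had log2 fold changes of 0.11 and 0.21 and Klf13 one of -0.13.

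Of 14 effector cytokines, death ligands and granule proteins, 12 could be tested and 0 were called, with a median log2 fold change of 0.32. At an unadjusted p under 0.05, 4 were higher (2.43% of all genes) and 0 lower, and 3 were higher without overlap between subsets (1.6% of all genes). The number called was 2 with no filter (beside 12 of 14127 genes) and with at least 5 CPM in 4 libraries (8 of 8934). It was also 2 with edgeR's other quasi-dispersion setting (0.109% of all genes), in limma voom (0.189%) and with a replicate block (0.129%). DESeq2 called 3 (0.318%). With 1 library left out, the number was 1 without CD11c+ library 2 (5 of 10255 genes) and 0 otherwise. The granzyme genes Gzmb (1905 ± 388 against 1062 ± 151 CPM) and Gzma (1322 ± 366 against 547 ± 140.2 CPM) each had an adjusted p of 0.0637 in edgeR's quasi-likelihood test and passed in DESeq2 and limma voom. Prf1 (perforin) was at 716 ± 144 and 576 ± 71.6 CPM and Ltb at 354 ± 41.3 and 417 ± 61.8 CPM. Ifng, made with these chemokines by activated cells and named here for that reason after its values were seen, was at 100.4 ± 29.5 and 79.8 ± 35.7 CPM.

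**Figure D5:**
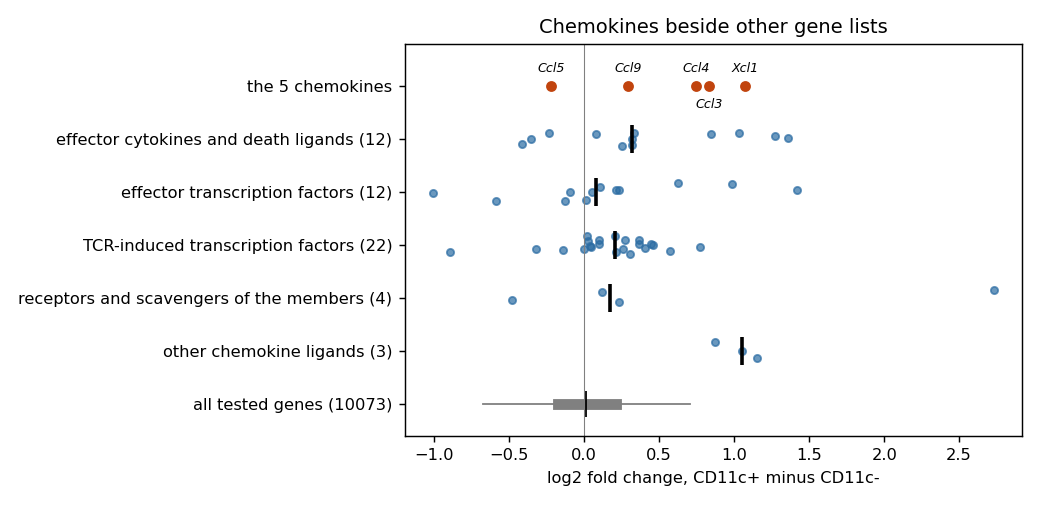
Log2 fold change (CD11c+ minus CD11c-) of the 5 chemokine genes and of the tested members of 5 gene lists, 1 point per gene, with a black bar at each list's median and, for all 10073 tested genes, the 25th to 75th percentile (thick) and the 5th to 95th (thin). Xcl1, Ccl3 and Ccl4 lie right of the thick bar of all genes. Factors induced or activated by the T-cell receptor (labelled TCR-induced) lie mostly near their median of 0.21.

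Likeness to each chemokine was measured as Pearson r of log2 CPM over the 8 libraries after centring on subset means, over 6218 further named genes of at least 20 CPM, as a description with no test. The highest for Ccl3 were Ccng1 (0.964), Il4ra (0.962), Agpat5 (0.952), Hif1a (0.951) and Gpd2 (0.950). Ccl4 shared 2 of these, with Hif1a (0.986), Vapa (0.978), Ccng1 (0.974), Mapk9 (0.966) and Orc2 (0.961). Ccl4 ranked 10 and Xcl1 ranked 245 among 6597 genes in likeness to Ccl3. Xcl1 had other neighbours, namely Adamts14 (0.989), Dbr1 (0.989), Nt5dc1 (0.987), Pramef8 (0.981) and Gltpd1 (0.976). For Ccl5 they were Bbip1 (0.980), Klrd1 (0.973), Pik3r4 (0.971), Prrc2b (0.963) and Rap1b (0.961). Ccl9 was closest to Tle3 (0.980), Usp25 (0.980), Pcbd2 (0.968), Fam63b (0.968) and Arl4c (0.965). Without centring, r of each member with its 5 genes ranged widely, from -0.0320 (Il4ra with Ccl3) to 0.970 (Tle3 with Ccl9). With so many genes and 8 libraries, centred values this high are reached for each of the 5 members, and all genes of a library share its depth and RNA content.

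Among the factors induced or activated by the T-cell receptor, several had a high r with Ccl3 after centring on subset means. Of 17 with at least 20 CPM, 7 had an r over 0.7 with Ccl3 (5.67% of all genes did), and the median was 0.585 beside 0.0171 for all genes. These 7 were Irf4 (0.873), Nfatc1 (0.853), Irf8 (0.830), Jun (0.829), Fos (0.802), Nfkb2 (0.779) and Nr4a2 (0.749). They were chosen by their values, and the rest of the list did not all follow, Egr1 being at -0.840 and Nfkb1 at -0.607. Ccl3 was highest in library 2 of each subset, as were 7.65% of 6598 genes with at least 20 CPM. Nfatc1 also stood apart in CD11c- library 2, at 383 CPM against 313 to 321 CPM. The r values of this list were not computed without the libraries numbered 2. The 17 factors had a median r of 0.540 with Ccl4, 0.271 with Xcl1 and -0.290 with Ccl5. The effector transcription factors had a median r of -0.06 with Ccl3, with 1 of 11 over 0.7, Bhlhe40 (0.808), and with Klf2 at -0.866 and Tcf7 at -0.734. The effector cytokines and granule proteins had a median of -0.08, with 1 of 8 over 0.7, Prf1 (0.872), and with Gzma at -0.924 and Tnfsf14 at -0.749.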

How the data were processed

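RNA-seq read counts per gene symbol were used as deposited, 1 file per library (4 CD11c+, 4 CD11c-), raw counts with no normalization by the authors. Per the labels' protocols, polyA RNA was turned into cDNA by an adapted SMART-seq2 procedure with 10 to 12 preamplification cycles, made into Nextera XT libraries and read as 50 bp single reads. The submitters' processing notes name bcl2fastq, TopHat2 2.0.8b, HTSeq and the mouse build mm9. Neither the annotation nor the strand setting is given in the sources used here. HTSeq summary rows stayed out of library sizes: 65.1% ± 1.66 (SD, n = 8) of uniquely placed reads lay in no gene, 0.182% ± 0.0104 were ambiguous, and 52.0% ± 1.07 of all counted alignments were not unique. Loci and sequences come from GENCODE M21 and RefSeq on GRCm38, and no coordinate was converted.

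The subsets were compared by edgeR 4.0.16 under R 4.3.3 (filterByExpr, TMM, glmQLFit and glmQLFTest at their defaults; CD11c+ minus CD11c-; Benjamini-Hochberg over 10073 genes; threshold 0.05), and the steps were tested on simulated data. Standard errors are the log2 fold change over the root of F. Correlations used log2 CPM with a prior count of 2 and exact permutation. Pairs of libraries of a subset differed by a chi-square of at least 9.43 per degree of freedom over genes with at least 10 reads, so no pair looked like 1 library deposited more than once, and each was counted as 1 sample. Separately amplified parts of the same RNA would differ in this way too. Alternatives were other scaling factors and filters, DESeq2 1.42.0, voom in limma 3.58.1, edgeR's other quasi-dispersion setting, a replicate block and each library left out. DESeq2 applied its own filter on mean level before adjustment.

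Beside the 5 members, genes were named by rule: in each list those past the threshold and up to 4 of highest mean CPM, and for each member the 5 most alike. The members and lists were chosen with earlier results of these data known. Of the listed genes, 1 is not reported here.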

Additional observations from a re-analysis of the deposited data

Results flagged for a closer look

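In 66 groups of 4 libraries, 1 library was tested for standing apart from the other 3 (gap to the nearest value over the whole range above Dixon's critical value of 0.829), and 5 did, where chance alone gives about 1 in 20. Ccl3 was at 240.5 CPM in CD11c- library 2, against 89.5 to 107 CPM in the other 3 CD11c- libraries. Nfatc1, a factor of the T-cell receptor pathway, was also apart in CD11c- library 2, at 383 CPM against 313 to 321 CPM. Ltb was at 509.5 CPM in CD11c- library 4, against 378 to 397 CPM. The summed neutrophil markers stood at 285 CPM in CD11c+ library 3, against 2.27 to 46.1 CPM in the other CD11c+ libraries. The summed dendritic cell markers stood at 124 CPM in CD11c- library 4, against 50.2 to 61.0 CPM in the other CD11c- libraries.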

How the results depend on the processing

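The log2 fold changes of Ccl3, Ccl4, Ccl5 and Xcl1 kept their direction under every alternative run. With 1 library left out they ranged from 0.46 to 1.27 for Ccl3, 0.59 to 0.91 for Ccl4, -0.41 to -0.15 for Ccl5, 0.88 to 1.19 for Xcl1 and -1.80 to 0.70 for Ccl9, which turned without CD11c+ library 3. Ccl4 (0.75) and Xcl1 (1.07) passed the threshold in DESeq2, which adjusted over fewer genes. Ccl9 turned in limma voom (-0.55). The number of genes past the threshold, 5 in the edgeR quasi-likelihood test, was 12 with no filter, 8 with at least 5 CPM in 4 libraries, 32 in DESeq2, 19 in limma voom, 11 with edgeR's other quasi-dispersion setting, and 1 to 5 with 1 library left out, where it was 1 without CD11c- library 3 or 4, 2 without CD11c+ library 1, 3 or 4 or CD11c- library 1, and 3 without CD11c- library 2. The cause was not tested.

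Replicate numbers are shared by the subsets but are not said to mark shared mice. Same-numbered libraries deviated together with r of 0.0964, 0.167, 0.119 and 0.190 over genes. Between differently numbered libraries of opposite subsets r was at most 0.0276, so each library correlated best with its own number. Not all same-numbered values were over the limit of 0.1 that had been set, so the main test did not take them as pairs. With a replicate block 13 genes passed and Ccl9 was at -1.25. The members' adjusted p-values with the block (edgeR quasi-likelihood) were 0.0663 for Ccl3, 0.0695 for Ccl4, 0.148 for Xcl1, 0.479 for Ccl5 and 0.903 for Ccl9. Gzma and Gzmb, at an adjusted p of 0.0637 without it, passed with the block (adjusted p = 0.00562 each). Between same-numbered libraries, Ccl3, Ccl4 and Xcl1 were higher in CD11c+ in 4 of 4 comparisons (7.68% of all genes) and Ccl5 lower in 4 of 4 (7.77%). With the block and without both libraries numbered 2, a choice made after seeing the data, 11 genes passed and Ccl9 was at -0.63.

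Of the correlations, Ccl3 with Xcl1 missed 0.05 as rho (0.833), centred (0.748), without the 2 farthest libraries (0.664) and without both libraries numbered 2 (0.934). Ccl4 with Xcl1 missed it centred (0.739) and without both libraries numbered 2 (0.892), and Ccl3 with Ccl4 without the 2 farthest (0.860, adjusted exact permutation p = 0.132). With 1 library left out, r ranged from 0.899 to 0.967 for Ccl3 with Ccl4, 0.765 to 0.913 for Ccl3 with Xcl1 and 0.872 to 0.976 for Ccl4 with Xcl1. Among other genes, small differences turned: Nfatc1 in limma voom (-0.0027) and without 1 library (-0.0904 to 0.15), Nr4a1 (-0.10 to 0.27) and Bhlhe40 (-0.0698 to 0.24) without 1 library.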

Other observations

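Replicate numbers coincided in which library was highest. Ccl3, Ccl4 and Xcl1 were highest in the library numbered 2 of both subsets, as were 7.65% of 6598 genes with at least 20 CPM. Ccl5 and Ccl9 were highest in the library numbered 3 of both subsets, as were 6.43% of those genes (Ccl9 itself lies below that level). In all, 32.7% of the genes were highest in the same number in both subsets. The labels give no meaning to the numbers beyond naming replicates.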
